A study of Homo sapiens with 7 samples.

Results

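Hepatocyte-enriched miRNAs were followed in small extracellular vesicles (sEVs) released by HepG2, a human hepatocellular carcinoma cell line. The set was chosen by name and holds 6 mature miRNAs of the 2656 in the count table: hsa-miR-122-5p, hsa-miR-192-5p, hsa-miR-194-5p, hsa-miR-215-5p, hsa-miR-148a-3p and hsa-miR-885-5p. All 7 libraries came from HepG2 cells that carried a lentiviral, doxycycline-induced short hairpin RNA and were selected with puromycin. In 3 libraries the hairpin was a scrambled control (shCTR) and in 4 it targeted SYNCRIP (shSYNCRIP), an RNA-binding protein that loads miRNAs into sEVs. A single hairpin sequence was used against SYNCRIP, and sEVs were pelleted by ultracentrifugation from medium with sEV-depleted serum. No messenger RNA was counted, so the knockdown itself cannot be checked here. The sample titles name HepG2 throughout, although one label numbers the cell line upwards from HepG2 to HepG8.

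A mature miRNA guides Argonaute to messenger RNAs mainly through its seed, the bases 2 to 8 from its 5′ end. miR-122-5p is the dominant miRNA of normal hepatocytes, where it is known for roles in lipid metabolism and in hepatitis C virus replication, and HepG2 is known as a liver line with little of it. miR-192 and miR-194 are transcribed together from one locus, miR-215 and a second copy of miR-194 from another, and both loci are known to respond to p53. miR-148a-3p is abundant in liver and is known to repress the DNA methyltransferase DNMT1. miR-885-5p is a liver-enriched miRNA studied in serum as a marker of liver injury.

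The mature sequences show which of the 6 can stand in for each other and which cannot. All 6 were found in the RefSeq table of GRCh38.p14 and are printed 5′ to 3′ with the seed in capitals.
miR-122-5p: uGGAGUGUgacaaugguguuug
miR-192-5p: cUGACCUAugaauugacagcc
miR-215-5p: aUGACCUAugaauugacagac
miR-194-5p: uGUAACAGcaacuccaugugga
miR-148a-3p: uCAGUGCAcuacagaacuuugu
miR-885-5p: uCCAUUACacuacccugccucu
miR-192-5p and miR-215-5p shared their seed and 19 of 21 bases. They differed by C1A and C20A, with the base of miR-192-5p first and positions counted from the 5′ end. The other 4 had seeds of their own within the set. In the whole RefSeq table the seed of miR-148a-3p was shared by miR-148b-3p and miR-152-3p, and the seeds of miR-122-5p, miR-194-5p and miR-885-5p by no other mature miRNA.

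On GRCh38, miR-122-5p lies at chr18:58451088-58451109 on the plus strand, in an exon of the noncoding host gene MIR122HG. miR-192-5p lies at chr11:64891203-64891223 on the minus strand, and the MIR194-2 copy of miR-194-5p lies 180 bases away at chr11:64891404-64891425, both in an exon of MIR194-2HG. miR-215-5p lies at chr1:220117916-220117936 and the MIR194-1 copy of miR-194-5p, 269 bases away, at chr1:220118206-220118227, both on the strand opposite to IARS2 within an intron of that gene. Since both copies give one and the same mature miR-194-5p, its counts cannot be divided between the locus of miR-192 and that of miR-215. miR-148a-3p lies at chr7:25949922-25949943 on the minus strand in no other gene of GENCODE release 29, and miR-885-5p at chr3:10394531-10394552 in an intron of ATP2B2 on the same strand.

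The libraries held between 29863 (shSYNCRIP replicate 2) and 388226 (shCTR replicate 3) miRNA counts, with 100 (shSYNCRIP replicate 4) to 275 miRNAs detected. The floor of 3 counts, below which a share cannot be told from 0, was 0.0100% in the shallowest library and 0.000773% in the deepest. Such limits, and the 95% Wilson intervals given with shares, cover counting error only, because amplified reads are not independent molecules. In a pool of vesicles, fewer vesicles that carry a miRNA and fewer copies in each cannot be told apart.

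The 6 miRNAs fell into 3 classes of abundance. miR-122-5p was counted in all 7 libraries, miR-194-5p and miR-148a-3p were at 200 counts or more in 4 libraries each and were at 3 counts or fewer in the other 3, and miR-215-5p, miR-192-5p and miR-885-5p were at or close to 0 throughout. Of the 42 values (6 miRNAs in 7 libraries), 18 were 0, 9 were between 1 and 9, 15 were 200 or more and 0 lay in between. Over all 2656 miRNAs, 13.9% of the values above 0 were at least 10 and under 200. The bounds of 10 and 200 border values of the set itself, 9 counts of miR-215-5p and 200 of miR-148a-3p. The empty middle class therefore describes the set, and its comparison with that percentage is no test. As a set the 6 took 0.523% to 1.01% of the counts in shCTR and 0.272% to 1.49% in shSYNCRIP, so the groups overlapped.

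**Figure D1:**
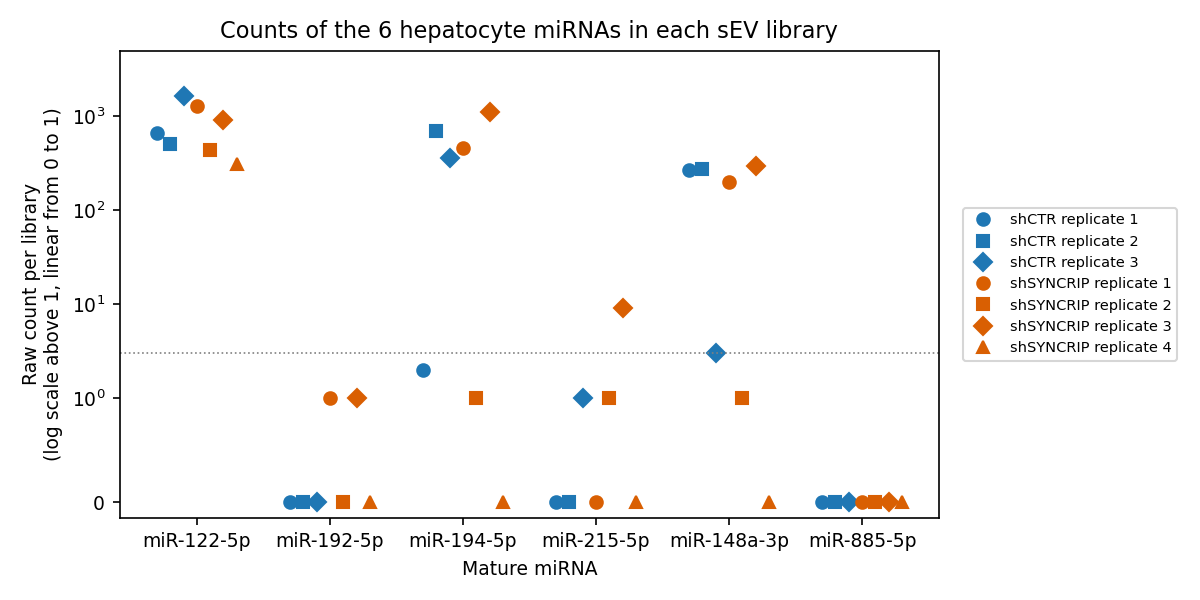
Raw counts of the 6 hepatocyte miRNAs (y axis, logarithmic above 1 and linear from 0 to 1) in the 3 shCTR (blue) and 4 shSYNCRIP (orange) libraries, with a dotted line at 3 counts. Each point is a library. miR-122-5p stands at 313 counts or more in every library, whereas miR-194-5p and miR-148a-3p are either at 200 or more or at 3 or fewer.

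miR-122-5p had 667, 502 and 1664 counts in shCTR replicates 1 to 3 and 1296, 442, 912 and 313 counts in shSYNCRIP replicates 1 to 4. These were 0.627%, 0.342% and 0.429% of the shCTR libraries, and 0.859%, 1.48%, 0.378% and 0.272% of the shSYNCRIP libraries. The widest Wilson interval belonged to shSYNCRIP replicate 2, the shallowest library, from 1.35% to 1.62%. The highest share was thus that of shSYNCRIP replicate 2 and the lowest that of shSYNCRIP replicate 4, and all 3 shCTR libraries lay between them. The mean share was 0.466% ± 0.146 (SD, n = 3) in shCTR and 0.748% ± 0.551 (SD, n = 4) in shSYNCRIP. By count, miR-122-5p ranked between 14th and 58th among the miRNAs of a library. It was the only one of the 6 detected in every library.

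After scaling by TMM, the mean level of miR-122-5p in CPM, counts scaled to one common library size, was 4766 ± 1541 for the 3 shCTR and 7650 ± 5414 for the 4 shSYNCRIP libraries (SD). The difference between the means was larger than the SD of shCTR and smaller than that of shSYNCRIP, whose replicate 2 stood at 15200 CPM. Its log2 fold change (shSYNCRIP relative to shCTR) was 0.29 in limma-voom, with a standard error of 0.95, a 95% interval from -1.60 to 2.19 and a Benjamini-Hochberg adjusted p of 0.992. The quasi-likelihood test of edgeR gave 0.68 (adjusted p 0.983), and -0.14 without shSYNCRIP replicate 2. The limma-voom estimate also turned negative when shCTR replicate 2 or shSYNCRIP replicate 1, 2 or 4 was left out.

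miR-194-5p was counted 2, 701 and 363 times in shCTR and 463, 1, 1120 and 0 times in shSYNCRIP. It was high in shCTR replicates 2 and 3 and in shSYNCRIP replicates 1 and 3, where it took 0.0935% to 0.477% of the counts. It was near 0 in shCTR replicate 1 and in shSYNCRIP replicates 2 and 4, so each group held both states. Its share was 0.191% ± 0.252 (SD, n = 3) in shCTR and 0.194% ± 0.231 (SD, n = 4) in shSYNCRIP. The log2 fold change was -1.31 in limma-voom (standard error 2.70, 95% interval from -6.72 to 4.10, adjusted p 0.992) and 0.09 in the quasi-likelihood test of edgeR (adjusted p 0.988). The signs of these estimates differ, and the interval spans large changes either way.

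For miR-148a-3p the counts were 265, 278 and 3 in shCTR and 200, 1, 298 and 0 in shSYNCRIP. The libraries that held it at 200 counts or more were shCTR replicates 1 and 2 and shSYNCRIP replicates 1 and 3. It took 0.146% ± 0.130 (SD, n = 3) of the counts in shCTR and 0.0649% ± 0.0731 (SD, n = 4) in shSYNCRIP, and the groups overlapped. The log2 fold change was -1.16 in limma-voom (standard error 2.73, 95% interval from -6.63 to 4.31, adjusted p 0.992) and -1.16 in the quasi-likelihood test of edgeR (adjusted p 0.983). Without shSYNCRIP replicate 4, in which it had 0 counts, the limma-voom value was 0.28.

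**Figure D2:**
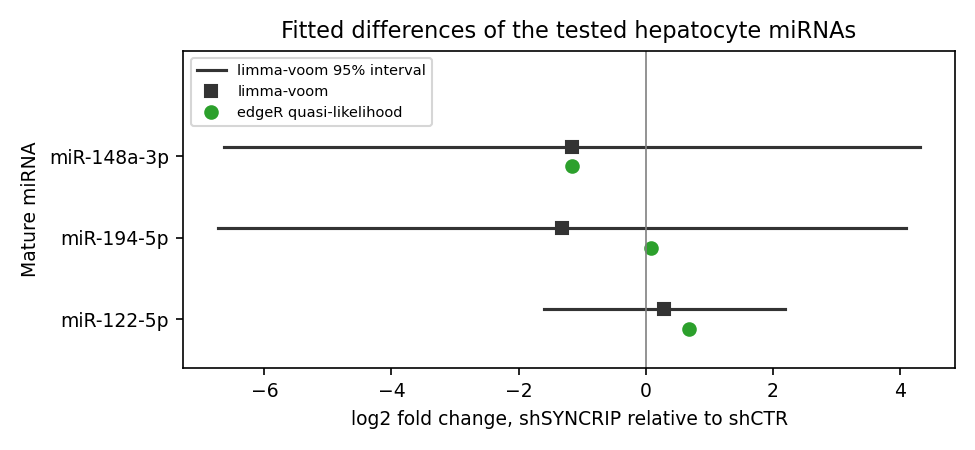
Fitted log2 fold changes (x axis, shSYNCRIP relative to shCTR) of the 3 hepatocyte miRNAs kept by the filter on low counts, as limma-voom estimates with 95% intervals (squares and lines) and as edgeR quasi-likelihood estimates (circles, drawn without an interval). All 3 intervals cross 0.

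miR-215-5p had 9 counts in shSYNCRIP replicate 3, 1 count in shSYNCRIP replicate 2 and in shCTR replicate 3, and 0 in the other 4 libraries. miR-192-5p, which carries the same seed, had 1 count in shSYNCRIP replicates 1 and 3 and 0 in the other 5 libraries. miR-885-5p had 0 counts in all 7 libraries. The floor of 3 counts was passed once, by miR-215-5p in shSYNCRIP replicate 3, at 0.00373% (95% Wilson interval 0.00196% to 0.00710%). With no filter on low counts, limma-voom estimated a log2 fold change of 2.54 for miR-215-5p (nominal p 0.0334, adjusted p 0.414), against 2.75 (adjusted p 0.607) in the quasi-likelihood test of edgeR. Both estimates rest on 3 libraries with any count of it.

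Of the 6, the 3 above passed the default filter of edgeR and miR-192-5p, miR-215-5p and miR-885-5p did not. In that fit, 0 of the 3 met the criteria of a nominal p under 0.1 and a log2 fold change beyond 0.5 in limma-voom, against 21 of 117 miRNAs tested (17.9%). The quasi-likelihood test of edgeR, at a Benjamini-Hochberg adjusted p under 0.05, called 0 of the 3 and 0 of 117 (0%). By that test 2 of 117 had an unadjusted p under 0.05, and limma-voom and DESeq2 each called 3 of 117 after adjustment, 10 of the 117 having no adjusted p in DESeq2. For 0 of the 3 did the 4 shSYNCRIP libraries lie wholly above or below the 3 shCTR libraries in CPM, against 8 of 117 (6.84%).

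The cluster partners did not have matched counts. In the 4 libraries with miR-194-5p above 3 counts, miR-194-5p summed to 2647 counts, miR-192-5p to 2 and miR-215-5p to 10. miR-192-5p made up at most 0.216% of its pair with miR-194-5p in any of them (shSYNCRIP replicate 1, 95% Wilson interval 0.0381% to 1.21%). miR-215-5p made up at most 0.797% of its pair (shSYNCRIP replicate 3, interval 0.420% to 1.51%), and this was also the library with the most miR-194-5p. Since miR-192-5p had 0 counts in both of the shCTR libraries and 1 count in each of the shSYNCRIP libraries, the log2 ratio of miR-192-5p to miR-194-5p is set largely by the count added to each. Its group difference was 1.07 with 0.5 counts added and 2.95 with 0.1, and no difference between the groups is read from it. The partners therefore disagreed in level in all 4 libraries, in both groups. In shCTR replicate 1 and shSYNCRIP replicates 2 and 4 each of the 3 partners had 2 counts or fewer. Agreement of their ratio could not be read from so few counts. How MiRDeep2 shared reads that fit both miR-192-5p and miR-215-5p is not given in the sources used here, but their sum reached at most 10 counts in a library.

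Ordered by mean share, miR-122-5p (0.627%) stood above miR-194-5p (0.193%) and miR-148a-3p (0.0998%), followed by miR-215-5p (0.00105%), miR-192-5p (0.000154%) and miR-885-5p (0). miR-122-5p exceeded miR-148a-3p in 7 of 7 libraries and miR-194-5p in 5, with miR-194-5p higher in shCTR replicate 2 and shSYNCRIP replicate 3. miR-194-5p exceeded miR-148a-3p in 4 libraries, was lower in 1 and equal in 2, so these neighbours did not differ beyond their spread. Nor did miR-215-5p and miR-192-5p, with miR-215-5p higher in 3 libraries, lower in 1 and equal in 3. These are shares of counts, and they were not corrected for how well each sequence is ligated.

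**Figure D3:**
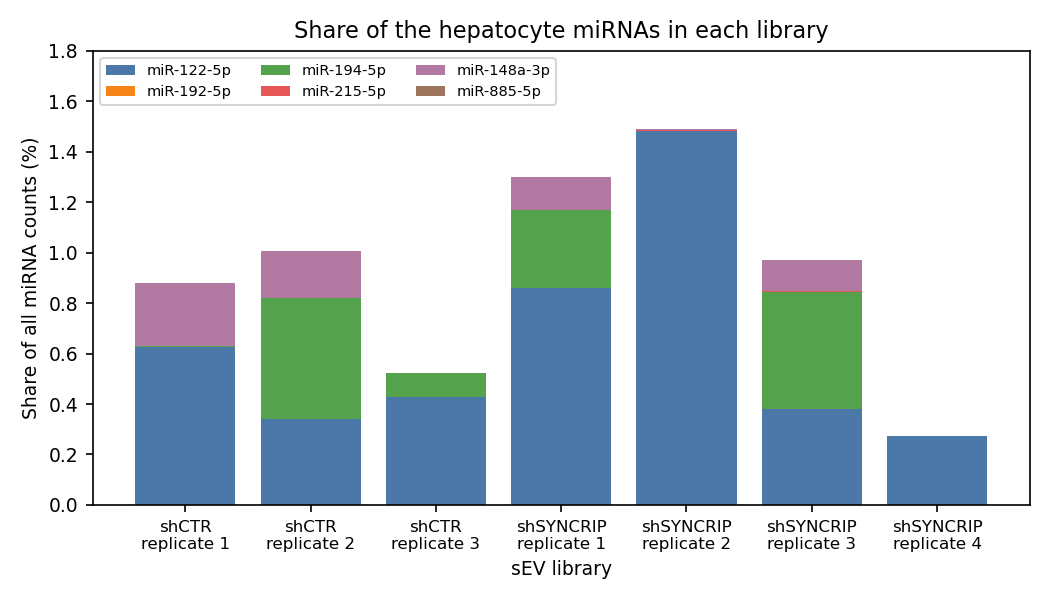
Share of all miRNA counts (y axis, percent) taken by the 6 hepatocyte miRNAs in each of the 7 libraries (x axis), stacked by miRNA. miR-122-5p makes up 33.9% (shCTR replicate 2) to 100% (shSYNCRIP replicate 4) of each bar, and the bars of both groups cover overlapping heights.

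Within a library the share of the set that was miR-122-5p ran from 33.9% in shCTR replicate 2 and 39.0% in shSYNCRIP replicate 3 to 99.3% and 100% in shSYNCRIP replicates 2 and 4. It was 71.4% in shCTR replicate 1, 81.9% in shCTR replicate 3 and 66.1% in shSYNCRIP replicate 1. shSYNCRIP replicate 2 had the fewest counts of all libraries and replicate 4 the fewest miRNAs detected, and whether these account for the missing miR-194-5p and miR-148a-3p was not tested.

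The 3 tested miRNAs also differed in how much they varied. The SD of log2 CPM over the 7 libraries was 0.79 for miR-122-5p, 3.76 for miR-194-5p and 3.41 for miR-148a-3p, beside a median of 2.57 over the 117 miRNAs tested. Of the 22 miRNAs whose mean log2 CPM lay within 1 of that of miR-122-5p, 7 had a smaller SD (median 1.01). Of the 22 such neighbours of miR-194-5p 16 had a smaller SD (median 3.47), and of the 27 of miR-148a-3p 13 did (median 3.53). Each of the 3 thus varied about as much as other miRNAs of its own level.

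**Figure D4:**
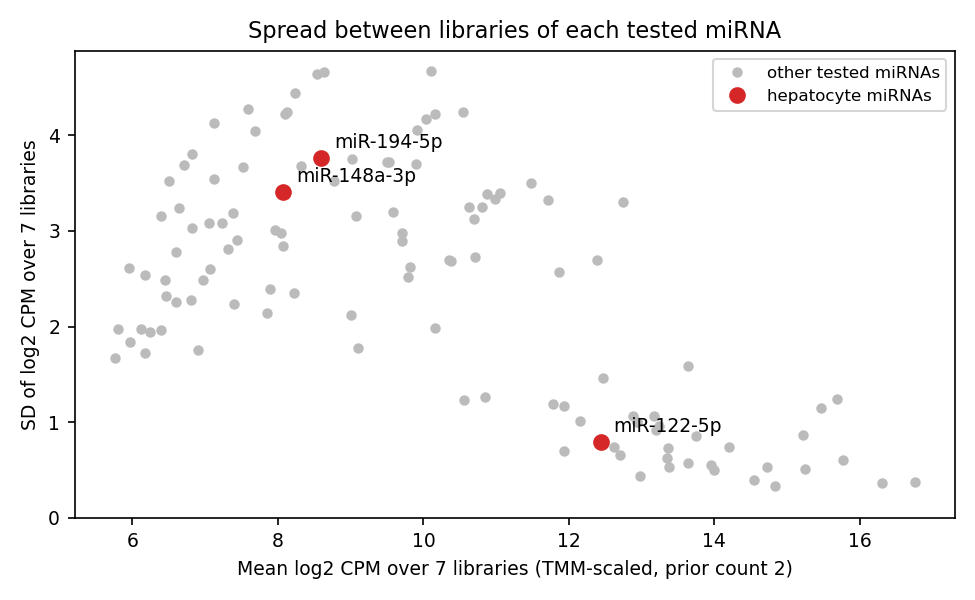
SD of log2 CPM over the 7 libraries (y axis) against mean log2 CPM (x axis) for the 117 miRNAs tested, with the 3 hepatocyte miRNAs in red and the others in grey. miR-122-5p sits at 0.79 among other abundant miRNAs, and miR-194-5p and miR-148a-3p at 3.76 and 3.41 among variable miRNAs of middle level.

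As a measure of likeness, the root mean square distance between log2 CPM profiles, each centred on its own mean over the 7 libraries, was 3.71 between miR-122-5p and miR-194-5p, 3.22 between miR-122-5p and miR-148a-3p and 3.30 between miR-194-5p and miR-148a-3p. Among the other tested miRNAs, miR-194-5p came 100th and miR-148a-3p 91st by nearness to miR-122-5p. This distance is not scaled by spread. Of the tested miRNAs, 102 had a smaller SD than miR-194-5p and 90 a smaller SD than miR-148a-3p, close to those ranks. Whether the profiles rise and fall together cannot be read from the ranks. Outside the set, let-7c-5p (0.61) and miR-1246 (0.65) were nearest to miR-122-5p, against a median distance of 2.21 to all others. miR-126-3p (1.38) and miR-107 (1.41) were nearest to miR-194-5p (median 3.63). The profile nearest to miR-148a-3p was that of miR-1290 (1.85), then that of miR-10b-5p (1.99), against a median of 3.29.

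miR-126-3p illustrates the likeness, with 8, 2781 and 7359 counts in shCTR and 1084, 5, 1036 and 0 in shSYNCRIP. It was low in the same 3 libraries as miR-194-5p, which follows from its choice by nearness and is no separate result. It is known as an endothelial miRNA and was listed here with the blood cell miRNAs.

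The opposite arms of the hairpins, normally the degraded strand, were not detected. miR-122-3p, miR-192-3p, miR-194-3p, miR-215-3p, miR-148a-5p and miR-885-3p had 0 counts in all 7 libraries. miR-122b, a separately named miRNA, had 496 counts of its 5p arm in shCTR replicate 3 and 328 of its 3p arm in shSYNCRIP replicate 1, and 0 elsewhere. Even where miR-122-5p reached 1664 counts, its own opposite arm was therefore not detected, under a limit of 0.000773% of that library.

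The seed relatives of miR-148a-3p were rarer than miR-148a-3p in the libraries that held it. miR-148b-3p had 2, 0 and 2 counts in shCTR and 4, 0, 5 and 0 in shSYNCRIP. miR-152-3p had 1, 131 and 1 counts in shCTR and 4, 1, 9 and 0 in shSYNCRIP, so shCTR replicate 2 stood alone. Their sequences are printed with the shared seed in capitals.
miR-148b-3p: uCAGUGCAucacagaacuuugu
miR-152-3p: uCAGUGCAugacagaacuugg
miR-148b-3p differs from miR-148a-3p by C9U and U10C, with the base of miR-148a-3p first. Neither relative passed the filter on low counts.

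Of 11 further miRNAs listed as liver-expressed, 8 were detected in at least 1 library and 3 passed the filter. 0 of these 3 met the limma-voom criteria in either direction. miR-22-3p had 448, 256 and 1690 counts in shCTR and 600, 3, 13 and 657 in shSYNCRIP (limma-voom estimate -2.56 ± 1.92 on the log2 scale, SE, adjusted p 0.763). It was high in shSYNCRIP replicate 4, where miR-194-5p and miR-148a-3p had 0 counts, and low in shSYNCRIP replicate 3, where both were high. miR-378a-3p was counted 26, 4 and 6 times in shCTR and 384, 10, 49 and 0 times in shSYNCRIP (1.63 ± 2.55, SE, adjusted p 0.992). miR-29b-3p had 2 counts in each shCTR library and 21, 3, 116 and 0 in shSYNCRIP (2.41 ± 2.36, SE, adjusted p 0.809). miR-33a-5p and miR-33b-5p, encoded in introns of the sterol regulators SREBF2 and SREBF1, and miR-455-5p had 0 counts in all libraries. The other arm, miR-455-3p, was detected in 2 libraries, with 267 counts in shCTR replicate 2 and 868 in shSYNCRIP replicate 3.

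The hepatocyte markers used were the members themselves without miR-215-5p, so they give no separate check of the cells. Of these markers, miR-122-5p was counted in all libraries, and miR-194-5p and miR-148a-3p were above 3 counts in 4 each. miR-192-5p was at 1 count or fewer and miR-885-5p at 0. The 9 miRNAs listed here as blood cell miRNAs took 21.6% to 27.4% of the counts in shCTR and 13.1% to 23.7% in shSYNCRIP. That list was written from general knowledge and is not limited to miRNAs particular to blood cells. The sum is therefore not a share of blood cell origin. Much of that sum was miR-486-5p (8.77% to 18.5% in shCTR, 8.54% to 11.5% in shSYNCRIP) and miR-16-5p (7.56% to 8.88% and 4.21% to 9.45%). Of these 9, 8 were tested and 3 were lower by the limma-voom criteria (miR-126-3p, miR-142-5p and miR-451a), against 15 of 117 miRNAs tested (12.8%). Their Benjamini-Hochberg adjusted p values in limma-voom were 0.440, 0.367 and 0.460. The quasi-likelihood test of edgeR called 0 of the 8, and its estimate for miR-451a was positive (0.60). In shSYNCRIP replicate 4, where miR-194-5p and miR-148a-3p had 0 counts, 6 of the 9 were at 0 as well (miR-451a, miR-144-3p, miR-142-3p, miR-142-5p, miR-150-5p and miR-126-3p), of which miR-144-3p was at 0 in 6 of the 7 libraries. The other 3 were well counted there, miR-486-5p with 9816 counts (8.54%), miR-16-5p with 4842 (4.21%) and miR-223-3p with 364 (0.317%). Over all miRNAs, shSYNCRIP replicate 4 detected 100 of the 406 found in any library, so a count of 0 was common in it. The part of blood cell miRNAs, and of the medium, in the values of the hepatocyte miRNAs was not tested.

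The hEXO motif, the stretch that SYNCRIP recognises, consists of 3 bases other than C, a base other than U, then A or U, then G or C. It was searched on the given strand after the first 7 bases, with overlapping matches allowed. It occurred in miR-122-5p (AUGGUG from position 13) and in miR-192-5p and miR-215-5p (2 matches each, the first AUUGAC from position 12). It did not occur in miR-194-5p, miR-148a-3p or miR-885-5p. It was held by 63.6% of the 2370 mature miRNAs in RefSeq. The only tested miRNA of the set with the motif was thus miR-122-5p, with estimates of 0.29 in limma-voom and 0.68 in the quasi-likelihood test. Without the motif, miR-194-5p had -1.31 and 0.09 and miR-148a-3p had -1.16 in both. The differences between them were not tested.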

How the data were processed

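Small RNA libraries of HepG2 sEVs (3 shCTR, 4 shSYNCRIP) were sequenced by the authors, who trimmed reads with FastqToolkit and Cutadapt, kept forward reads and counted them with MiRDeep2 against miRBase. They deposited raw counts per mature miRNA, without normalization. The submitters' processing notes name GRCh38. Columns were assigned by the group letters and replicate number of the titles, and 0 other columns of sample values were present.

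Software was edgeR 4.0.16, DESeq2 1.42.0 and limma 3.58.1 under R 4.3.3, and Python 3.11.15. filterByExpr kept 117 of 2656 miRNAs, and TMM factors ran from 0.905 to 1.13. limma-voom was applied as in the paper, with its nominal p under 0.1. The paper's cut-off of 0.5 is stated for the fold change and was read here as a log2 fold change. The quasi-likelihood test of edgeR was run beside it with Benjamini-Hochberg adjustment over the 117. Log2 CPM used a prior count of 2. Titles and methods call the libraries biological replicates, independent for shCTR, without saying whether these were separate cultures, so p-values measure the spread between these libraries. RefSeq names matched 2367 of the 2656 miRNAs and all 6 members.

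The members and lists were chosen with earlier results of these data known. Named miRNAs were the members, those of the lists of opposite arms, seed relatives, liver and blood cell miRNAs (written from general knowledge), and the 2 nearest profiles of each tested member. miR-122b was placed in the list of opposite arms. Alternatives were other size factors, filters and tests, a replicate block and each library left out.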

Additional observations from a re-analysis of the deposited data

How the results depend on the processing

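Depth limits the rare members most: 3 counts are 0.0100% of the shallowest library. Of the tested members 0 met the limma-voom criteria under any other scaling, test or block or without any library (range 0 to 0), and 1 member, miR-215-5p, met them with no filter. Over all miRNAs the criteria were met by 21 of 117 tested, and by 87 of 406 with no filter. With at least 10 counts in every library they were met by 3 of 36. Of 117 tested, 8 met them in the quasi-likelihood test, 11 in DESeq2 and 13 with the replicate block. Leaving out a library gave 16 to 22, with 98 to 139 tested. At an adjusted p under 0.05 the quasi-likelihood test called 0 (smallest adjusted p from 0.121 to 0.999 over the alternatives, 0 to 0 without any 1 library), 3 in limma-voom and 3 in DESeq2. The cause of the changes between settings was not tested.

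The limma-voom log2 fold change of miR-122-5p, 0.29, was -0.11 with no filter and ran from -0.33 to 0.29 without 1 library, negative without shCTR replicate 2 (-0.26) or shSYNCRIP replicate 1 (-0.33), 2 (-0.18) or 4 (-0.0069). Its quasi-likelihood value, 0.68, ran from -0.14 (without shSYNCRIP replicate 2) to 0.80. For miR-194-5p the limma-voom value, -1.31, was 1.98 with the replicate block, 0.37 without shCTR replicate 2 and 1.04 without shSYNCRIP replicate 4 (range -2.999 to 1.04 without 1 library). Its quasi-likelihood value, 0.09, was -0.040 with the size factors of DESeq2, -0.087 with no filter and -0.040 in DESeq2 itself. With the replicate block it was 2.29. It was -0.54, -0.10, -0.36 and -1.16 without shCTR replicate 1 or 3 or shSYNCRIP replicate 1 or 3 (range -1.16 to 1.59 without 1 library). miR-148a-3p went from -1.16 in limma-voom to 0.28 without shSYNCRIP replicate 4 (range -4.01 to 0.28), and its quasi-likelihood value stayed negative (range -1.92 to -0.45 without 1 library). miR-194-5p and miR-148a-3p could not be fitted with at least 10 counts in every library. In none of these fits was an adjusted p of the 3 below 0.700.

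The mean summed share of the members differed by 0.205 percentage points (shSYNCRIP minus shCTR), and by 0.0445 to 0.450 without 1 library. The log2 ratio of miR-192-5p to miR-194-5p differed by 1.07, by 0.435 to 1.71 without 1 library and by 2.95 with 0.1 counts added, since it rests on 0 or 1 counts of miR-192-5p. No sign of pairing by replicate number was seen: deviations of same-numbered libraries correlated at -0.064 to 0.088. Of 3 shCTR libraries, 1 correlated best with its own number. So few pairs cannot show that the libraries were unpaired.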
